A study of Mus musculus with 11 samples.

Results

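Proteoglycan genes were followed through 11 RNA-sequencing libraries of mouse mammary carcinoma lines that kept, could lose or had lost HER2. A list of 10 genes was taken by symbol from the 21846 genes of the count table. It held 6 genes of matrix-secreted proteoglycans (Dcn, Bgn, Lum, Fmod, Vcan and Hspg2) and 4 genes of cell-surface proteoglycans (Sdc1, Sdc4, Gpc1 and Gpc3). All 10 were found. Virgin FVBhuHER2 female mice, which carry human HER2 as a transgene, gave tumor A, the source of MamBo89 (HER2 stable), and tumor B, the source of MamBo43 (HER2 labile). MamBo38 (HER2 loss) was grown from a HER2-negative tumor that formed after MamBo43 cells had been injected into mice. MamBo43 TRT denotes MamBo43 cells that were seeded densely, given trastuzumab, an antibody against HER2, and had lost HER2. By the paper's flow cytometry, untreated MamBo43 cultures held some HER2-negative cells, and treated ones kept a small share of HER2-positive cells.

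The 6 HER2-negative libraries were 4 of MamBo38 and 2 of MamBo43 TRT. The 5 HER2-positive libraries were 4 of MamBo89 and 1 of untreated MamBo43. MamBo38 had 2 untreated libraries with different number codes in their names: the second code is shared with all MamBo43 and MamBo89 libraries, and the first with the other MamBo38 libraries. MamBo89 had 2 untreated libraries, of which the one named AG3 was taken as the clone that the methods list. MamBo38, MamBo43 and MamBo89 each had 1 library of cells kept for 60 days in trastuzumab at 30 µg/ml and 1 of cells with 30 days on the antibody and 30 days off it. Nothing in the labels says that the libraries of a line came from separate cultures, so p-values measure the spread between these libraries, which may be technical. All libraries of tumor A were HER2-positive MamBo89, so for these HER2 status, line and tumor cannot be told apart. Within tumor B, untreated MamBo43 was the only HER2-positive library, so there HER2 status can be compared against 1 library. The table lists mouse genes, so HER2 itself, a human gene, was not checked, and the promoter of the transgene is not named in the sources used here.

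Proteoglycans are proteins that carry long sulfated sugar chains called glycosaminoglycans. Decorin (Dcn), biglycan (Bgn), lumican (Lum) and fibromodulin (Fmod) are small leucine-rich proteoglycans that bind collagen fibrils. Versican (Vcan) is a large chondroitin sulfate proteoglycan that binds hyaluronan, and perlecan (Hspg2) is the heparan sulfate proteoglycan of basement membranes. Syndecans (Sdc1, Sdc4) span the plasma membrane and glypicans (Gpc1, Gpc3) are held on it by a lipid anchor, and both act as co-receptors for growth factors. In the mammary gland, stromal fibroblasts are known as the main makers of decorin and versican, and epithelial cells as the main makers of syndecan-1.

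Counts per library summed to between 17040454 and 27127662. Levels are given as CPM, counts per 1000000 counts of library sizes scaled by the TMM method, and 3 counts correspond to 0.114 to 0.179 CPM. No pair of libraries within a line and HER2 state agreed within sampling noise, since the chi-square per degree of freedom over genes was 7.93 or more. The AG3 library stood apart from the other MamBo89 libraries, with Hspg2 3.05-fold and Gpc3 3.96-fold below the highest of them. The untreated MamBo38 library of the second code also stood apart from the other MamBo38 libraries, but no proteoglycan gene differed by more than 1.78-fold. Summed levels of 7 epithelial markers were 1.25 to 2.51 CPM in MamBo38, 392 to 1753 CPM in MamBo43 TRT, 3135 CPM in untreated MamBo43 and 2327 to 3715 CPM in MamBo89. Epithelial markers were thus close to absent in MamBo38 alone. Summed levels of 8 fibroblast or mesenchymal markers were 3697 to 4322, 9106 to 9435, 3265 and 65.5 to 109 CPM in the same order. The fibroblast markers did not move as one. The collagen gene Col1a2 had 2446 to 3057 CPM in MamBo38, 4675 and 4958 CPM in MamBo43 TRT, 97.9 CPM in untreated MamBo43 and at most 2 counts in MamBo89. Postn, which encodes periostin, made up most of the sum in untreated MamBo43, at 2950 CPM, and had 2224 and 1712 CPM in MamBo43 TRT, 22.4 to 36.6 CPM in MamBo38 and 11.9 to 36.7 CPM in MamBo89. Col1a2 was thus high in the same libraries as Dcn, Bgn and Vcan, and Postn was not. Col1a1 and Pdgfrb were also highest in MamBo43 TRT and lowest in MamBo89. Pdgfra was highest in MamBo38, at 814 to 999.9 CPM, against 146 CPM in each MamBo43 TRT library. Acta2 had 7.44 to 26.5 CPM in MamBo38 and 69.1 and 467 CPM in MamBo43 TRT. Thy1 had at most 1 count in MamBo38, and Fap had at most 6 counts in any library. Of the leukocyte markers, Cd3e and Adgre1 had 0 counts in every library and Ptprc had at most 1 count. Cd68, a macrophage marker, differed between lines, with 27.1 to 49.7 CPM in MamBo38, 3.67 and 4.41 CPM in MamBo43 TRT, 1.02 CPM in untreated MamBo43 and 6.96 to 16.7 CPM in MamBo89. The part of these markers in the results was not tested. Among endothelial markers, Pecam1 reached 13 counts and Cdh5 1 count, and Lep of the adipocyte markers had 0 counts in all 11 libraries. In such bulk samples, fewer cells of a type and less RNA per cell cannot be told apart.

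Promoter sequences of 4 genes are shown because these genes mark the extremes of the list: Vcan and Bgn were far higher in HER2-negative libraries, Gpc3 was detected almost only in MamBo89, and Fmod was near 0 in every library. Each is the 250 bases before the RefSeq start on GRCm38.p6, written in the direction of transcription, and capitals mark GC boxes (GGGCGG, or CCGCCC on the other strand).
Vcan, chr13:89742513-89742762, minus strand: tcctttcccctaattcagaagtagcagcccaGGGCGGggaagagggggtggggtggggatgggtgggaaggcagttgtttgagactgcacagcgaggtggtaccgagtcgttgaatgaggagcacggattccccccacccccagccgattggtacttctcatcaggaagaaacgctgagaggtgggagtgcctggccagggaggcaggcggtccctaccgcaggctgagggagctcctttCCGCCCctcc
Bgn, chrX:73483351-73483600, plus strand: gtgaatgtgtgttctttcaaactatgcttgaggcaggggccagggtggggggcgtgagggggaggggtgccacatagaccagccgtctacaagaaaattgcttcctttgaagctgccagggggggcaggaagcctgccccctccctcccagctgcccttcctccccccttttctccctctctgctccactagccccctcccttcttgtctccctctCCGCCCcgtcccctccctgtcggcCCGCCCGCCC
Gpc3, chrX:52613975-52614224, minus strand: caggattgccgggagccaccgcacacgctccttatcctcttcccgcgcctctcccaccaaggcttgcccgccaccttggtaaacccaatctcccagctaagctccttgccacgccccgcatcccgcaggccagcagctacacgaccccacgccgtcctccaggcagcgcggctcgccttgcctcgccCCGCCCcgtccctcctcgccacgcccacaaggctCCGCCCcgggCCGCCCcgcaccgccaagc
Fmod, chr1:134037004-134037253, plus strand: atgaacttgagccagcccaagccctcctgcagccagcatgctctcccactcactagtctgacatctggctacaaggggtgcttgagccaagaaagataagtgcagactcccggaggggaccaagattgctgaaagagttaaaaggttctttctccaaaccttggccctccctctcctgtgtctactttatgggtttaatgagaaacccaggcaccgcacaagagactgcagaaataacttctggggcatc

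RefSeq entries were found for 7 of the 10 genes, and none was given for Dcn, Lum and Gpc1. Vcan had 2 GC boxes in its window, Bgn and Gpc3 had 3 each, and matches that overlap were each counted. Sdc1, with 3, Sdc4, with 4, and Hspg2, with 5, also held the motif. Fmod had none, and of its bases 51.2% were G or C against 62.4% for Vcan, 64.4% for Bgn and 71.6% for Gpc3. GC boxes stood in 32.7% of all 32851 promoter windows of this length. No window of the 7 genes held an E-box of the type CAGGTG or CACCTG (17.2% of all windows), a TATA box TATAAA or TTTATA (12.4%) or an AP-1 motif TGANTCA (6.75%), each searched on both strands. A match is only a description of these letters, and the absence of one says nothing about the factor that binds it.

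**Figure D1:**
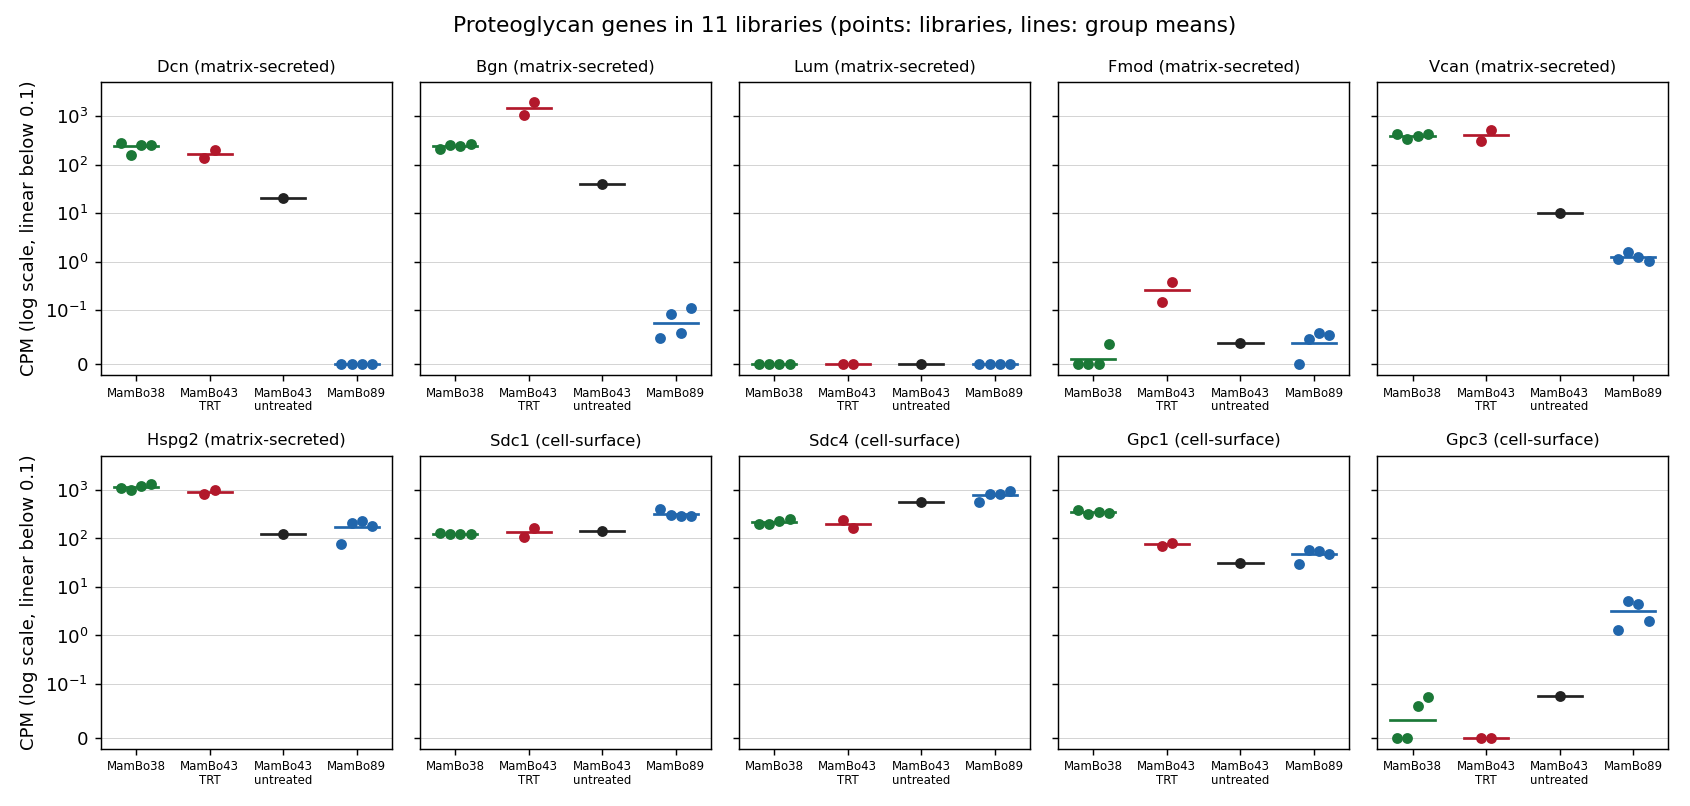
Each panel plots one gene: the horizontal axis gives the 4 groups and the vertical axis CPM on a log scale that is linear below 0.1, with points for the libraries and lines for the group means. Dcn, Bgn and Vcan were highest in MamBo38 and MamBo43 TRT and lowest in MamBo89, with untreated MamBo43 between them, whereas Gpc3 was above 1 CPM in MamBo89 alone.

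The first question was which proteoglycan genes differed between cells without and with HER2. Dcn, Bgn, Vcan, Hspg2 and Gpc1 were higher in the 6 HER2-negative libraries, and Sdc1 and Sdc4 were lower. Of the 10 genes, 7 passed the filter on low counts, and Lum, Fmod and Gpc3 did not. A gene was called at an edgeR adjusted p under 0.1 and a log2 fold change of at least 1 in size, and 15.8% of the 12364 genes tested were called higher and 17.0% lower. Libraries of the groups did not overlap for 6 of the 7 genes tested, beside 34.9% of all genes tested. Dcn and Bgn passed the filter only through the libraries in which they were high, so these counts describe the list and support nothing. The median log2 fold change was 6.01 for the 4 matrix-secreted genes tested and -1.13 for the 3 cell-surface genes tested, beside -0.04 for all genes tested.

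Decorin, which binds collagen and transforming growth factor beta, is encoded by Dcn (ENSMUSG00000019929, chromosome 10 of GRCm38, 97479609 to 97518143, plus strand). Its level was 280, 158, 260 and 258 CPM in the MamBo38 libraries (untreated of the first code, untreated of the second code, 30 days on and off, and 60 days). It was 139 CPM in MamBo43 TRT after 30 days on and off, 197 CPM after 60 days and 20.3 CPM in untreated MamBo43. All 4 MamBo89 libraries had 0 counts. The groups therefore did not overlap, and the lone MamBo43 library held every count of the HER2-positive group. On the log2 scale the change was 5.69 (standard error, SE, 1.64, edgeR adjusted p = 0.0131). Against the floor of 3 counts in a MamBo89 library, Dcn was at least 1367-fold higher in MamBo38, at least 963-fold higher in MamBo43 TRT and at least 116-fold higher in untreated MamBo43.

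Biglycan, the closest relative of decorin, is encoded by Bgn (ENSMUSG00000031375, chromosome X, 73483602 to 73495933, plus strand). In the same order of libraries, MamBo38 had 214, 259, 240 and 266 CPM, MamBo43 TRT 1066 and 1956 CPM, and untreated MamBo43 40.8 CPM. The MamBo89 libraries held 1, 2, 1 and 2 counts. MamBo43 TRT was thus far above every other library, and MamBo89 was at the limit of detection. The HER2-negative mean was 667 ± 712 CPM (SD, n = 6) and the HER2-positive mean 8.23 ± 18.2 CPM (SD, n = 5), which gave a log2 change of 6.32 (SE 1.91, edgeR adjusted p = 0.0163). Summed counts gave a ratio of MamBo38 to MamBo89 of 3190 (exact 95% interval 1465 to 8692, counting error only).

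Versican is encoded by Vcan (ENSMUSG00000021614, chromosome 13, 89655312 to 89742509, minus strand), with the hyaluronan link protein gene Hapln1 next to it (89539796 to 89611652). MamBo38 had 432, 332, 383 and 428 CPM, MamBo43 TRT 305 and 512 CPM, and untreated MamBo43 9.90 CPM. MamBo89 had 1.12 CPM in AG3, 1.57 CPM untreated, 1.28 CPM after 30 days on and off and 1.03 CPM after 60 days. Every HER2-negative library was thus far above every HER2-positive one, and MamBo38 lay within the range of MamBo43 TRT. The log2 fold change was 7.04 (SE 0.74, edgeR adjusted p = 2.77e-05). Hapln1 had at most 1 count in any HER2-negative library, 0 counts in untreated MamBo43 and 3 to 43 counts in MamBo89, and was not tested.

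Perlecan is encoded by Hspg2 (ENSMUSG00000028763, chromosome 4, 137468769 to 137570630, plus strand). It had 1086, 977, 1233 and 1302 CPM in MamBo38, 846 and 996 CPM in MamBo43 TRT and 126 CPM in untreated MamBo43. In MamBo89 it had 75.8 CPM in AG3 and 210, 231 and 181 CPM in the other libraries. Hspg2 was the one matrix-secreted gene above trace level in MamBo89, and the groups did not overlap. HER2-negative libraries had 1073 ± 170 CPM (SD, n = 6) and HER2-positive libraries 165 ± 63.4 CPM (SD, n = 5), which gave a log2 change of 2.70 (SE 0.28, edgeR adjusted p = 2.45e-05).

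The keratan sulfate members were close to absent. Lum (ENSMUSG00000036446, chromosome 10, 97565128 to 97572703, plus strand), which lies beside Dcn, had 0 counts in all 11 libraries, which allows at most 0.114 to 0.179 CPM per library. Kera, the next gene of that cluster, also had 0 counts throughout. Fmod (ENSMUSG00000041559, chromosome 1, 134037254 to 134048277, plus strand) had 3 and 10 counts in MamBo43 TRT and at most 1 count in every other library. Its highest level was 0.384 CPM, in MamBo43 TRT after 60 days. Dcn was thus high in libraries in which Lum, its neighbour on the chromosome, had no count.

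Syndecan-1, the main syndecan of epithelia, is encoded by Sdc1 (ENSMUSG00000020592, chromosome 12, 8771323 to 8793715, plus strand). MamBo38 had 132, 126, 125 and 122 CPM, MamBo43 TRT 106 and 168 CPM, and untreated MamBo43 143 CPM. MamBo89 had 396, 307, 286 and 288 CPM. Untreated MamBo43 lay among the HER2-negative libraries, so the groups overlapped, and MamBo89 stood above all others. The log2 fold change was -1.13 (SE 0.22, edgeR adjusted p = 0.00127). Adding the tumor as a term gave -0.14 (edgeR adjusted p = 0.688), and leaving out AG3 gave -0.97, just short of the fold threshold.

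Syndecan-4, which sits in focal adhesions, is encoded by Sdc4 (ENSMUSG00000017009, chromosome 2, 164424247 to 164443887, minus strand). MamBo38 had 199, 196, 228 and 250 CPM, MamBo43 TRT 244 and 162 CPM, and untreated MamBo43 565 CPM. MamBo89 had 571, 828, 821 and 939 CPM. Unlike Sdc1, Sdc4 was high in both HER2-positive lines, and the groups did not overlap. It fell by 1.81 on the log2 scale in HER2-negative libraries (SE 0.18, edgeR adjusted p = 1.7e-05).

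Glypican-1 is encoded by Gpc1 (ENSMUSG00000034220, chromosome 1, 92831645 to 92860779, plus strand). MamBo38 had 389, 327, 350 and 339 CPM, MamBo43 TRT 70.7 and 80.9 CPM, and untreated MamBo43 30.7 CPM. MamBo89 had 30.3, 57.8, 54.4 and 48.1 CPM. Gpc1 was the cell-surface gene that went the same way as the matrix-secreted genes, and MamBo38 was far above both MamBo43 TRT libraries. Its log2 fold change was 2.54 (SE 0.49, edgeR adjusted p = 0.00123). The overlapping gene Ankmy1 on the minus strand shares 17.5% of the 75-base windows of Gpc1, and the kit does not mark strand, but Ankmy1 had only 3 to 21 counts in any library.

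Glypican-3, a glypican of embryonic tissues, is encoded by Gpc3 (ENSMUSG00000055653, chromosome X, 52272426 to 52613950, minus strand). The MamBo89 libraries had 27, 113, 77 and 37 counts, or 1.31, 5.20, 4.49 and 2.01 CPM. The other 7 libraries had at most 2 counts, and both MamBo43 TRT libraries had 0. Gpc3 was thus low everywhere and detected above 3 counts in MamBo89 alone. The ratio of summed counts in MamBo89 to those in the HER2-negative libraries was 140 (exact 95% interval 47.3 to 682, counting error only), with 254 against 3 counts. Gpc4, which lies next to it on chromosome X (52053021 to 52165252), was also lower in HER2-negative libraries, at 66.0 ± 16.5 CPM (n = 6, SD) versus 166 ± 34.2 CPM (n = 5, SD).

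The comparison of HER2 states depended on the lines it joined. Without the untreated MamBo43 library the log2 fold change was 12.96 for Bgn, 8.30 for Vcan and, fitted against 0 counts and thus no bound, 15.11 for Dcn, and with tumor B alone it was 3.997 for Bgn, 5.29 for Vcan and 3.37 for Dcn. With untreated libraries alone, Dcn (adjusted p = 0.168), Bgn (adjusted p = 0.235) and Sdc1 (adjusted p = 0.132) did not pass by edgeR, while Vcan, Hspg2, Gpc1 and Sdc4 did. Among the libraries of tumor B alone, Bgn (adjusted p = 0.149), Gpc1 (adjusted p = 0.109) and Sdc1 (adjusted p = 0.615) did not pass, and with counts summed to 1 library per line and HER2 state none of the 7 genes passed (adjusted p = 0.115 to 0.413).

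**Figure D2:**
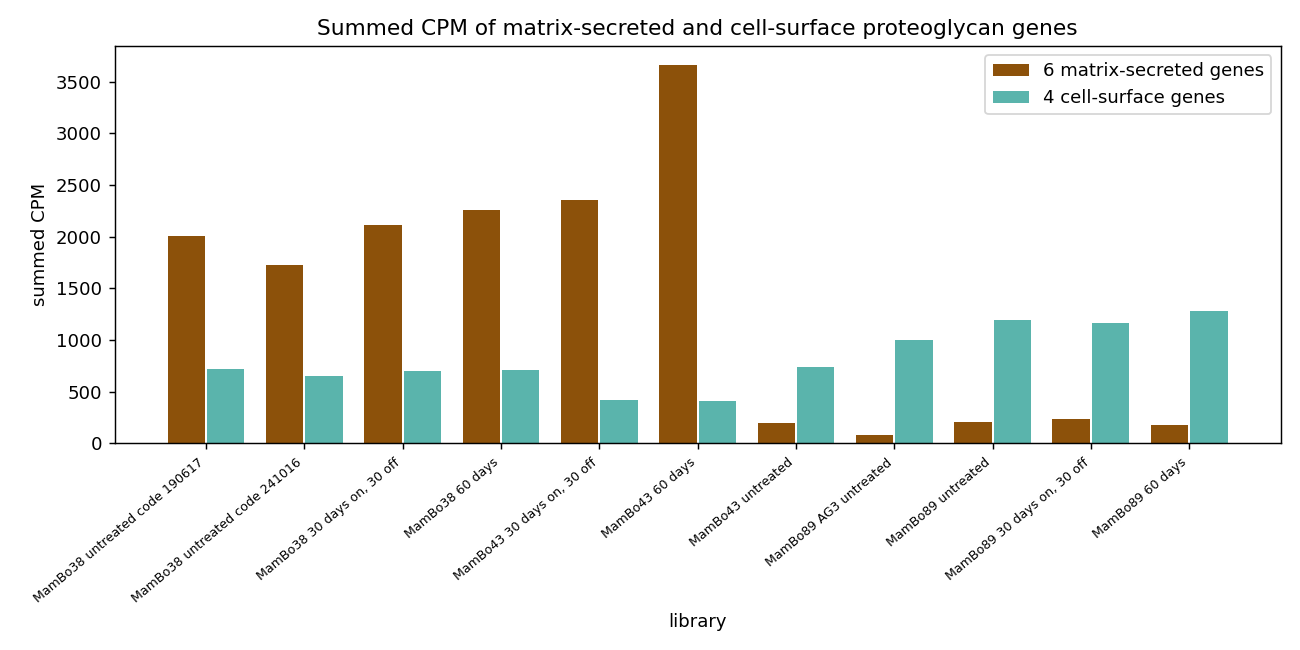
Bars give the summed CPM of the 6 matrix-secreted genes and of the 4 cell-surface genes (vertical axis, from 0) in each of the 11 libraries (horizontal axis). CPM was not divided by exon length. The matrix-secreted sum was above the cell-surface sum in all HER2-negative libraries and below it in all HER2-positive ones.

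Added up, the matrix-secreted genes had 1726 to 2255 CPM in MamBo38, 2356 and 3663 CPM in MamBo43 TRT, 197 CPM in untreated MamBo43 and 77.0 to 232 CPM in MamBo89. The cell-surface genes had 649 to 720 CPM in MamBo38, 421 and 410 CPM in MamBo43 TRT, 738 CPM in untreated MamBo43 and 999 to 1278 CPM in MamBo89. The ratio of the first sum to the second was 2.66 to 3.17 in MamBo38, 5.60 and 8.93 in MamBo43 TRT, 0.267 in untreated MamBo43 and 0.0771 to 0.199 in MamBo89. The bars show a matrix-secreted sum above the cell-surface sum in each HER2-negative library and below it in each HER2-positive one. CPM was not divided by exon length, and Hspg2 and Vcan have 14307 and 14462 exon bases against 2547 for Sdc4. The sums thus do not compare numbers of transcripts between both kinds of gene. Hspg2 and Bgn carried most of the matrix-secreted sum, so the ratio follows the abundant genes.

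Levels of different genes were compared per kilobase of exon sequence. In MamBo38, mean CPM per kilobase was 85.7 for Sdc4, 80.3 for Hspg2, 68.1 for Gpc1, 40.9 for Dcn, 40.1 for Bgn, 33.2 for Sdc1 and 27.2 for Vcan. In MamBo43 TRT the order began with Bgn at 248 CPM per kilobase, followed by Sdc4 at 79.6 and Hspg2 at 64.4, and ended with Gpc1 at 14.7. In untreated MamBo43 it was Sdc4 at 222 and Sdc1 at 37.4, and in MamBo89 Sdc4 at 310 and Sdc1 at 83.8, that led. Syndecan-4 was thus among the leading transcripts in each group, while Bgn led in MamBo43 TRT. Dcn and Bgn in MamBo38 did not differ beyond their spread per kilobase (SD 9.43 and 3.81, n = 4).

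The second question was what changed within one line when it lost HER2 in culture. The MamBo43 TRT libraries were set against the untreated MamBo43 library in a fit of all 11 libraries in 4 groups, with 13.6% of 13782 genes called higher and 15.5% lower. The lone untreated library was assumed to vary like the other groups, and it is also part of the HER2-positive group above, so both comparisons share libraries. Within MamBo43, loss of HER2 and trastuzumab cannot be told apart, and the labels do not give the seeding density of the untreated library. All 3 MamBo43 libraries carry the same code.

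Dcn, Bgn, Vcan, Hspg2 and Gpc1 were called higher and Sdc4 lower, out of 8 genes tested. Vcan was 41.3-fold higher, with 409 ± 146 CPM (SD, n = 2) against 9.90 CPM, a log2 change of 5.36 (SE 0.40, edgeR adjusted p = 4.24e-05). Bgn was 37.0-fold higher, with a log2 fold change of 5.21 (SE 0.40, edgeR adjusted p = 4.7e-05). The small leucine-rich relative Dcn was 8.27-fold higher, with a log2 fold change of 3.05 (SE 0.43, edgeR adjusted p = 0.00227). The ratio of Bgn to Dcn was 2.01 in untreated MamBo43, 7.66 and 9.91 in MamBo43 TRT and 0.764 to 1.64 in MamBo38. Hspg2 was 7.33-fold higher (2.87 on the log2 scale, SE 0.57, edgeR adjusted p = 0.00453) and Gpc1 2.47-fold higher (log2 fold change 1.30, SE 0.33, edgeR adjusted p = 0.0145).

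Of the syndecan genes, Sdc4 was called in MamBo43 and Sdc1 was not, and the difference between them was not tested. Sdc4 fell by 1.48 on the log2 scale (SE 0.30, edgeR adjusted p = 0.0053), from 565 CPM to 244 and 162 CPM. Sdc1, at 143 CPM before and 106 and 168 CPM after, had a log2 fold change of -0.06 with a 95% interval of -0.66 to 0.54. The untreated value of Sdc1 thus lay between both TRT values. The ratio of Sdc4 to Sdc1 was 3.96 in untreated MamBo43 and 2.30 and 0.964 in MamBo43 TRT. The 6 calls and their directions were the same under every alternative tried for this comparison. The 60-day library was above the 30-day one for Bgn by 1.84-fold and for Vcan, Dcn, Hspg2, Gpc1 and Sdc1 by less, and below it for Sdc4. Each schedule had 1 library, so this was not tested.

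**Figure D3:**
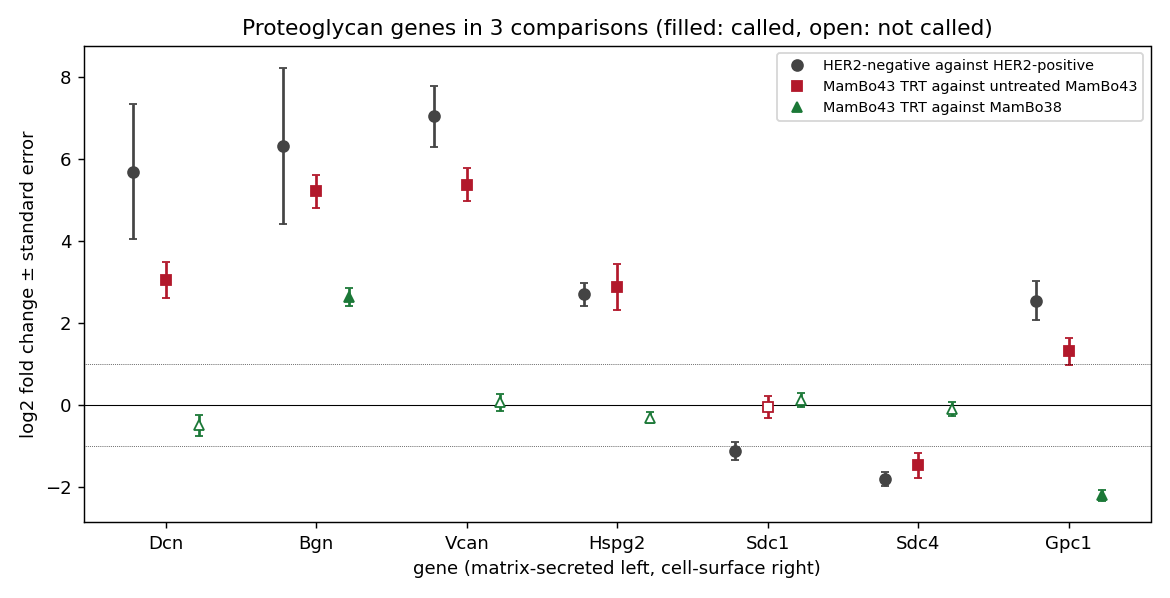
Points give the log2 fold change of 7 genes (vertical axis, with standard errors as bars) in 3 comparisons, filled where called and open where not, with dotted lines at a change of 1. The 4 matrix-secreted genes are above 1 in the comparison of HER2 states and within MamBo43, and of the 7 genes Bgn and Gpc1 alone are called between MamBo43 TRT and MamBo38.

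The third question was whether the 2 kinds of HER2-negative cells carried the same proteoglycan genes. MamBo43 TRT lost HER2 in culture and MamBo38 in mice, and these libraries also enter the comparisons above. In all, 9.90% of 12545 genes were called higher and 11.7% lower in MamBo43 TRT. Bgn was called higher (6.17-fold, log2 fold change 2.63, SE 0.22, edgeR adjusted p = 0.000279). Gpc1 was called lower, with 75.8 ± 7.23 CPM (n = 2, SD) versus 352 ± 27.0 CPM (n = 4, SD) and a log2 fold change of -2.21 (SE 0.13, edgeR adjusted p = 0.000138). The other 5 genes tested were not called, and their libraries overlapped. Their 95% intervals on the log2 scale were -0.43 to 0.55 for Vcan, -1.09 to 0.081 for Dcn, -0.64 to 0.013 for Hspg2, -0.29 to 0.52 for Sdc1 and -0.53 to 0.33 for Sdc4. Each interval held 0, and that of Dcn also held a change of 1 in size.

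The fourth question was whether the labile line differed from the stable one while both still carried HER2. Untreated MamBo43 was set against both untreated MamBo89 libraries, and 4.87% of 12867 genes were called higher and 2.53% lower. MamBo43 had 1 library here, which was assumed to vary like the MamBo89 libraries. Of the 8 proteoglycan genes tested, Dcn and Bgn were called higher (edgeR adjusted p = 7.72e-05 and 5.67e-06). Both had over 3 counts in the MamBo43 library alone and passed the filter only through it, so their calls support nothing. Gpc3 passed the filter only through the MamBo89 libraries, where it was high, so its values in this comparison support nothing either. With 1044 counts against 6 in all MamBo89 libraries, the ratio for Bgn was 530 (exact 95% interval 243 to 1447, counting error only). Vcan was 9.90 CPM against 1.12 and 1.57 CPM, with a log2 fold change of 2.90 (SE 0.998, edgeR adjusted p = 0.123), and was called by DESeq2 (adjusted p = 0.0981) and without the filter (adjusted p = 0.0749). Gpc3 had 2 counts against 27 and 113, with an adjusted p of 0.134 (DESeq2, 0.051, and without the filter, 0.0572), and Sdc1 had an adjusted p of 0.222.

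With all 4 MamBo89 libraries in the fit of 4 groups, the log2 fold change was 2.97 for Vcan, -1.16 for Sdc1 and -5.28 for Gpc3. Gpc3 was above 3 counts in MamBo89 alone, so its value describes the list and supports nothing. Line and tumor of origin cannot be told apart here. The untreated MamBo43 library thus had counts of Dcn and Bgn that the MamBo89 libraries lacked or nearly lacked, at levels below those of the HER2-negative libraries. Whether HER2-positive or HER2-negative cells of this culture held them was not tested. For Hspg2 (-0.16, 95% interval -1.30 to 0.99), Sdc4 (-0.29, -1.48 to 0.91) and Gpc1 (-0.50, -1.60 to 0.61) the log2 difference was not called and the intervals were wide.

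The fifth question was whether trastuzumab itself moved these genes where HER2 status did not change. Within MamBo89, 2 treated libraries were set against 2 untreated ones, and 0% of 12046 genes were called by edgeR, with 186 genes at an unadjusted p under 0.05 and 3 genes called by DESeq2. Within MamBo38, 0% of 11861 genes were called, with 503 at an unadjusted p under 0.05 and 4 called by DESeq2. The difference between both effects gave 0% of 12983 genes called, with 218 at an unadjusted p under 0.05 and 2 called by DESeq2. None of the proteoglycan genes tested, 6 in MamBo89, 7 in MamBo38 and 8 for the difference, had an unadjusted p under 0.05 in edgeR. For the difference, Dcn had 0 counts and Bgn 1 or 2 counts in each MamBo89 library, and Gpc3 had at most 2 in MamBo38. The test of the difference therefore says nothing of Dcn, Bgn and Gpc3.

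In MamBo38, the 95% intervals on the log2 scale, treated against untreated, were -0.26 to 0.42 for Bgn, -0.36 to 0.50 for Vcan, -0.019 to 0.58 for Hspg2 and -0.014 to 0.54 for Sdc4. Dcn was less certain, with -0.50 to 0.94, and its untreated libraries had 280 and 158 CPM. In MamBo89 the interval for Hspg2 was -0.56 to 1.64 and that for Gpc3 -1.92 to 1.93, so a change of more than 1 lay inside them. The MamBo89 value of Hspg2 rested on AG3: with AG3 as the only untreated library, Hspg2 was called higher (1.43, edgeR adjusted p = 0.000239), and without AG3 its log2 fold change was -0.01 (adjusted p = 1). With AG3 as the only untreated library, clone and treatment cannot be told apart, and in both of these fits the lone untreated library was assumed to vary like the treated ones.

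Other genes of the pathway were counted in 8 lists, to be read beside the 15.8% of all genes tested that were called higher and the 17.0% called lower. Of the 48 called genes of these lists, 16 passed the filter through the group in which they were high and not through the other, 14 of them higher and 2 lower. They include Aspn, Optc, Cspg4, Hyal1, Has2, Hpse, Hs3st5, Hs3st1 and Csgalnact1 of the genes named here, and like Dcn and Bgn they describe their list and support nothing. Of 24 other matrix proteoglycans, 11 were tested between HER2-negative and HER2-positive libraries, 7 were called higher and 2 lower, and the median log2 fold change was 2.55, beside -0.04 for all genes tested here and in the lists that follow. Asporin (Aspn), another small leucine-rich protein, had 3.74 ± 4.91 CPM (SD, n = 6) against at most 2 counts in any HER2-positive library (edgeR adjusted p = 0.00108). It had 5.14 and 13.1 CPM in MamBo43 TRT and 0 counts in MamBo89. Opticin (Optc) was low but likewise higher, at 0.501 to 2.99 CPM in HER2-negative libraries and at most 2 counts in the others (edgeR adjusted p = 0.000753). Optc and Prelp lie near Fmod on chromosome 1. Prelp, chosen for mention after its values were seen, had 22.6 to 160 CPM in HER2-negative and 1.956 to 34.8 CPM in HER2-positive libraries. Agrin (Agrn), a heparan sulfate proteoglycan of basement membranes like perlecan, went the opposite way to Hspg2: 172 ± 114 CPM (n = 6, SD) versus 507 ± 101 CPM (n = 5, SD), a log2 fold change of -1.57 (SE 0.41, edgeR adjusted p = 0.00786).

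Of 11 other cell-surface proteoglycans, 8 were tested, 2 were called higher and 2 lower, with a median of 0.50. Cspg4, the chondroitin sulfate proteoglycan also known as NG2, had 34.6 ± 13.7 CPM (n = 6, SD) versus 0.481 ± 0.849 CPM (n = 5, SD), a log2 fold change of 6.08 (SE 0.995, edgeR adjusted p = 0.000451). It was highest in MamBo38, at 38.9 to 47.9 CPM, and reached 16.7 and 18.2 CPM in MamBo43 TRT. Gpc4 was called lower (-1.33, SE 0.19, edgeR adjusted p = 0.000204). Cspg4 is also a pericyte marker, and the other pericyte markers Rgs5 and Kcnj8 had at most 2 counts.

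Hyaluronan is the sugar that versican binds. Of 12 genes of its synthases, hyaluronidases and link proteins, 9 were tested, 4 were called higher and 2 lower, with a median of 1.36. The synthase gene Has2 was low throughout, at 3.44 ± 1.27 CPM (n = 6, SD) versus 0.614 ± 0.314 CPM (n = 5, SD), and was called higher (2.46, SE 0.44, edgeR adjusted p = 0.000805). The hyaluronidase gene Hyal1 was called higher too (3.36, SE 0.91, edgeR adjusted p = 0.00928), but within MamBo43 it had 8.53 CPM before and 11.8 and 13.2 CPM after (adjusted p = 0.412). Hyal1 overlaps other genes in the annotation, so its counts are uncertain.

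Glycosaminoglycan chains are started on a short linker and need activated sulfate. All 7 enzymes of the linker that joins chain to protein were tested, none was called higher and 2 were called lower, and the median was -0.50. The linker phosphatase gene Pxylp1 had 12.2 ± 1.69 CPM (n = 6, SD) versus 28.2 ± 8.35 CPM (n = 5, SD), a log2 fold change of -1.21 (SE 0.21, edgeR adjusted p = 0.00057). Of 9 genes for sulfate and sugar donors, 2 were called higher and 2 lower, with a median of 0.14. The sulfate transporter gene Slc26a2 (-1.50, SE 0.19, edgeR adjusted p = 8.7e-05) and the sulfate activating enzyme gene Papss1 (-1.28, SE 0.21, edgeR adjusted p = 0.000417) were the lower ones.

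Of 24 heparan sulfate genes, 16 were tested, 7 were called higher and 4 lower, with a median of 0.51. Heparanase (Hpse), the enzyme that cuts heparan sulfate, had 24.7 to 42.4 CPM in every HER2-negative library, 0.470 CPM in untreated MamBo43 and at most 1 count in MamBo89 (7.98, SE 0.79, edgeR adjusted p = 1.95e-05). A pair of 3-O-sulfotransferase genes went opposite ways: Hs3st5 had 0.997 to 7.98 CPM in HER2-negative libraries and at most 2 counts in the others, while Hs3st1 had 3.60 to 21.5 CPM in HER2-positive libraries and 0 counts in all MamBo38 libraries. Hs3st5 was called higher (edgeR adjusted p = 0.000123) and Hs3st1 lower (edgeR adjusted p = 0.00499). The 6-O-sulfotransferase gene Hs6st1 was also lower, at 39.8 ± 15.5 CPM (n = 6, SD) versus 126 ± 33.1 CPM (n = 5, SD), with an adjusted p of 0.000392.

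Of 16 chondroitin and dermatan sulfate genes, 14 were tested, 4 were called higher and 3 lower, with a median of 0.53. Csgalnact1, which starts chondroitin chains, had 41.6 ± 18.8 CPM (n = 6, SD) versus 0.524 ± 0.679 CPM (n = 5, SD), a log2 fold change of 6.23 (SE 0.80, edgeR adjusted p = 9.44e-05). The uronyl 2-sulfotransferase gene Ust varied little within groups, at 30.7 to 38.1 CPM against 2.53 to 5.36 CPM (3.02, SE 0.20, edgeR adjusted p = 2.16e-06). Dsel, a relative of the dermatan sulfate epimerase gene Dse, was lower, at 10.7 ± 1.957 CPM (n = 6, SD) versus 35.2 ± 8.43 CPM (n = 5, SD). Dse itself was called higher (2.47, SE 0.41, edgeR adjusted p = 0.000462). Dse was chosen for mention after its value was seen.

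Of 10 proteases known to cleave proteoglycans, 8 were tested, 2 were called higher and 3 lower, with a median of -0.60. Adamts5, an aggrecanase that also cuts versican, had 99.3 to 204 CPM in HER2-negative and 0.874 to 4.72 CPM in HER2-positive libraries (6.19, SE 0.47, edgeR adjusted p = 4.42e-06). Adamts1, its neighbour on chromosome 16, was higher as well, at 362 ± 118 CPM (n = 6, SD) versus 99.98 ± 42.9 CPM (n = 5, SD), with an edgeR adjusted p of 0.0018. Adamts9 was lower (-2.37, SE 0.32, edgeR adjusted p = 0.000129). Vcan, Adamts5 and Adamts1 were thus higher in the same libraries, while 3 proteases of the list, Adamts9 among them, were called lower.

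**Figure D4:**
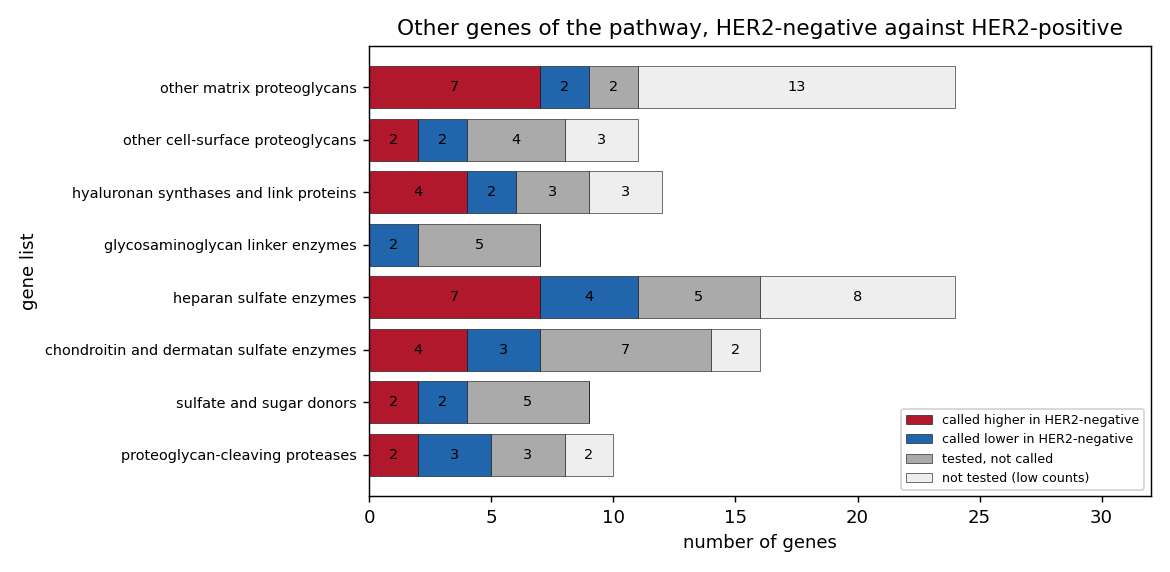
Bars count the genes of 8 lists (horizontal axis: number of genes) that were called higher, called lower, tested and not called, or not tested between HER2-negative and HER2-positive libraries. Other matrix proteoglycans had 7 genes called higher and 2 lower, and the linker enzymes had none called higher and 2 lower.

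Within MamBo43 the same lists gave, for TRT against untreated, 7 higher and 2 lower of 18 other matrix proteoglycans tested, 3 and 2 of 9 other cell-surface proteoglycans, 2 and 0 of 12 hyaluronan genes and 0 and 0 of 7 linker enzymes. For heparan sulfate genes it was 4 and 2 of 18, for chondroitin and dermatan sulfate genes 7 and 1 of 15, for donors 0 and 1 of 9, and for proteases 2 and 2 of 9. The background was 13.6% higher and 15.5% lower. Some genes tested here passed the filter only through libraries in which they were high. Aspn and Optc, for instance, had 2 and 0 counts in untreated MamBo43. Such genes were not tallied for this comparison, so its counts describe the lists and support nothing. The chondroitin and dermatan sulfate list had more genes called higher within MamBo43 than between the HER2 states, and the difference between both counts was not tested. Vcan and Adamts5 moved alike there as well: Adamts5 had a log2 fold change of 5.93 (SE 0.96, edgeR adjusted p = 0.00166) and Adamts1 one of 2.93 (SE 0.33, edgeR adjusted p = 0.000257). Hpse rose by 5.89 on the log2 scale, from 12 counts to 504 and 823. It passed the filter only through the libraries in which it was high, so this describes the list and supports nothing. Csgalnact1 (3.35, adjusted p = 0.000841) and Ust (2.58, adjusted p = 0.000818) rose too, and Agrn (-1.02, adjusted p = 0.0439), Dsel (-1.46, adjusted p = 0.00696) and Hs6st1 (-1.25, adjusted p = 0.0212) fell.

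Genes with a like pattern were found by Pearson's r of log2(CPM + 0.5) over the 11 libraries among 12363 genes. For Dcn they were Cd302, Nfatc4 and Lrp1 (r of 0.997 each), and for Vcan they were Rcn3, Sdk1 and Ror2 (r of 0.998, 0.998 and 0.997). For Sdc1 they were Sox11, Tmc7 and Zfp992 (r of 0.979, 0.979 and 0.978). The libraries fall into 4 groups of related cells, so these values describe the pattern of the groups, and many genes share it.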

How the data were processed

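Total RNA of cell pellets was sequenced by the authors in single-end mode after a TruSeq kit, and the deposited table holds expected counts per gene from STAR 2.5 and RSEM 1.3.0, on build mm10 per the submitters' processing notes. All values were whole as deposited and were used unrounded. The annotation behind the counts is not given in the sources used here, and positions were taken from GENCODE on GRCm38. All columns were matched to samples by name. The methods mention replicates of each sample, and whether a column pools them is not given in the sources used here. The HER2 states and the sample lists followed the labels and the methods.

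Genes were kept by filterByExpr (minimum count 10, minimum total 15), libraries scaled by TMM, and genes tested with glmQLFit and glmQLFTest of edgeR 4.0.16 in R 4.3.3, with Benjamini-Hochberg adjustment over all genes tested. The standard error is the absolute log2 fold change over the square root of F, and 95% intervals take this error with the t distribution at the degrees of freedom of the fit. Fits were checked on simulated data. DESeq2 1.42.0 was an alternative. Of the gene lists, the 2 called genes with the largest change in each direction, among those whose HER2 groups did not overlap, were named, and for Dcn, Vcan and Sdc1 the 3 genes of highest r. The members, lists and tests were chosen with earlier results of these data known.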

Additional observations from a re-analysis of the deposited data

Results flagged for a closer look

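Within the HER2-positive group, untreated MamBo43 stood far from the 4 MamBo89 libraries for 3 genes, by the gap of the extreme library relative to the range of its group. Dcn was 20.3 CPM in untreated MamBo43 and 0 in the others. Bgn was 40.8 CPM against 0.0487 to 0.109 CPM, and Vcan was 9.90 CPM against 1.03 to 1.57 CPM. The group joins 2 lines from different tumors, so the gap is also that between lines. In MamBo38, Fmod was 0.0380 CPM in the 60-day library, which is 1 count, against 0 in the others. Of 35 groups looked at, 4 showed such a gap, and chance gives about 1 in 20 where values are normal, which counts near 0 are not.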

How the results depend on the processing

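Between HER2-negative and HER2-positive libraries, no proteoglycan gene changed direction under any alternative. Over the 14 alternatives other than leaving out single libraries, the genes called in all ranged from 4 to 5434. The counts of proteoglycan genes that follow therefore describe the list only. Beside the 5 genes called higher, 3 were called when at least 10 counts were asked of every library (2597 genes called in all), 3 with untreated libraries only, 3 with libraries of tumor B only and 0 with counts summed per line and HER2 status. Beside the 2 called lower, 1 passed glmTreat (2601 genes called in all), 1 passed with tumor of origin as covariate, 1 with untreated libraries only, 1 with tumor B only and 0 with the summed counts, which called 4 genes in all because only 4 sums remain. It was 3 without the filter and 3 with libraries of the second code only. Leaving out single libraries gave 1 to 3 genes lower, with 1 without AG3.

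For untreated MamBo43 against MamBo89, 3 genes, Vcan among them, were called higher by DESeq2, without the filter and with all MamBo89 libraries, but 2 with RLE size factors. There 1 gene was called lower by DESeq2, 1 without the filter and 2 with all MamBo89 libraries (2604 genes called in all), and leaving out single MamBo89 libraries from that larger fit gave 1 to 2 genes lower and 2300 to 3369 genes in all. Between MamBo43 TRT and MamBo38, 2 genes were called higher without the filter. DESeq2 called 3 genes for trastuzumab within MamBo89, 4 within MamBo38 and 2 for the difference. Leaving out single libraries gave 0 to 2296 genes within MamBo89, with 0 to 1 proteoglycan gene higher, 0 to 1057 genes within MamBo38, and 0 to 826 genes for the difference, with 0 to 1 proteoglycan gene higher. The highest of these counts came without the untreated MamBo89 library other than AG3 (2296 and 826) and without the untreated MamBo38 library of the first code (1057), and their cause was not tested.

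Signs turned only for log2 fold changes that were not called. For the trastuzumab difference, Dcn was 0.036 by DESeq2, and within MamBo89, Gpc3 was -0.00034 without the filter. With libraries of the second code only, MamBo43 TRT against MamBo38 gave 0.045 for Sdc4 and 0.089 for Dcn. Without single libraries, Sdc1 ranged from -0.43 to 0.20 within MamBo43. Against MamBo38 the ranges were -0.42 to 0.19 for Sdc4, -0.23 to 0.42 for Sdc1 and -0.34 to 0.39 for Vcan. Within MamBo89 they were -0.42 to 0.030 for Vcan, -0.0078 to 1.43 for Hspg2, -0.16 to 0.74 for Gpc1 and -0.68 to 1.28 for Gpc3. Within MamBo38 they were -0.028 to 0.21 for Bgn, -0.20 to 0.084 for Gpc1, -0.14 to 0.72 for Dcn and -0.12 to 0.30 for Vcan. For the trastuzumab difference they were -0.72 to 0.13 for Dcn, -0.17 to 0.34 for Sdc4, -0.31 to 1.14 for Hspg2, -0.35 to 0.62 for Bgn and -0.10 to 0.81 for Gpc1. The values of this difference for Dcn and Bgn, with 0 and at most 2 counts in MamBo89 libraries, are not estimates of an effect. No paired analysis was run, since the labels carry no shared replicate numbers. The fit of the mean of both HER2-negative states against the mean of both HER2-positive states was chosen after seeing the data. Depth limits Lum, Fmod and Gpc3, which were at or near 0 in most libraries. Gpc3 was above 3 counts in MamBo89 alone, so calls of it support nothing.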
